A study of Xenopus laevis with 16 samples.

Results

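The genes described here are the measured ligands, receptors, secreted antagonists, processing proteases, Smads and Smad regulators of the TGF-beta superfamily in Xenopus laevis ectoderm. They were taken by name: every probe set with exactly 1 gene symbol that starts with bmp, gdf, nodal, inhb, tgfb, acvr, smad, chrd, nog, fst, cer1, lefty, bambi, smurf, ski or tll, with bmp7.2.L and smad7.L left out. This gave 57 of 7531 measured genes, carried by 67 of 15491 probe sets, and each gene was read at its brightest probe set over the 16 arrays. Symbols end in .L or .S for the copies of a gene on the long and short chromosomes of this allotetraploid frog, its homeologs. Of the 57 genes, 54 code for parts of the pathways, and fstl1.L, tgfb1i1.L and tgfbi.L share only the start of a name with one.

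The samples were pools of animal caps, the explanted roof of the blastula, which forms epidermis when grown alone. The embryos had either received 100 pg of foxD5 mRNA per cell at the 2-cell stage or were left uninjected, and the caps were grown either without or with 200 ng/ml Noggin protein, so that 4 groups of 4 arrays resulted. FoxD5 is a forkhead protein that acts in the presumptive neural plate. Injected caps were cut at stage 8 to 9, and the labels put the end of culture at stage 11.5 to 13.0 for injected caps without Noggin and 11.5 to 12.5 for both groups in Noggin, that is gastrula to the start of neurulation. In Noggin the injected pools were staged later than their siblings in 3 of 4 pairs (11.5 to 12.5 against 11.5 to 12.0 in pair 2, 12.0 to 12.5 against 11.5 to 12.0 in pair 3, and 12.5 against 12.0 to 12.5 in pair 4), and the part of stage in the effects of foxD5 was not tested. The stage of the uninjected caps without Noggin was not given, and since no group received a control mRNA, the act of injection cannot be told apart from foxD5. Each injected pool is labelled with its uninjected siblings, which makes 8 sibling pairs, 4 per culture, but the labels do not say that the pairs came from separate clutches. The p values therefore measure the spread between these pools, which may be technical. Pools held 45 to 171 caps, both extremes falling in pair 1 without Noggin, and pair 4 in Noggin used small caps.

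Ligands of this family are secreted dimers that join type I and type II receptor kinases on the cell surface. BMP and GDF ligands of the BMP kind act through Smad1, Smad5 and the Smad8/9 type, whereas Nodal, activin, Vg1 and TGF-beta act through Smad2 and Smad3, and both branches share Smad4. In the gastrula, BMP signalling drives ectoderm towards epidermis, Noggin and Chordin bind BMPs and leave room for neural fate, and Nodal-type ligands induce mesoderm and endoderm. Lefty and Cerberus restrain Nodal ligands, Tolloid proteases cut Chordin, and BAMBI is a receptor without a kinase domain that dampens the signal. BMP4, BAMBI and the inhibitory Smads belong to a group of genes that BMP signalling itself switches on.

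Signals are the authors' deposited intensities on a linear scale. Changes are log2 differences of signal plus 16 after quantile normalisation, which understates the change of dim genes. The mean signal lay under 16 for 28 of the 57 genes (49.1%) against 28.5% of all probe sets, and no detection calls were used. The arrays of pair 2 without Noggin had the highest lower quartiles before normalisation, 22.9 and 22.04 against 9.94 to 16.5 on the other 14, so dim genes read high there. Signals of the cochlea markers, the tissue named in the sample titles, could not be checked because 0 of 8 were measured. Epidermis markers, 9 in number, were measured in all pools, with a summed signal of 5846 to 15859 in uninjected and 5455 to 7545 in injected caps without Noggin, and of 5475 to 19095 and 5632 to 9646 in Noggin. Much of this sum was krt70.S, with a mean of 5732, and others such as foxi1.L and krt70.L fell as low as 0.92 and 3.85. Of 8 mesoderm markers 5 had a mean signal under 16, as did 11 of 15 endoderm markers and 3 of 11 neural plate markers. The summed neural plate signal was 3202 to 5615 in uninjected and 4917 to 5363 in injected caps without Noggin. In Noggin it was 2583 to 7117.5 and 4082 to 5857.5.

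In caps that received foxD5, the ligand gene gdf3.S, which codes for the mesoderm-inducing factor Derriere, rose over both cultures, and it was the only one of the 57 genes to pass the test. Its log2 change was 0.78 ± 0.15 (SE of the limma fit, 8 sibling pairs, limma adjusted p = 0.0223), or 1.72-fold on this scale. Over all probe sets 213 (1.37%) passed in this comparison, 137 higher and 76 lower. A second Nodal-branch gene, the antagonist lefty.L, had a like value of 0.75 ± 0.17 with an adjusted p of 0.0573. On the BMP side, bmp4.S, smad9.S and bambi.L had the lowest values, -1.06 ± 0.26, -0.92 ± 0.21 and -0.88 ± 0.23, with adjusted p of 0.0858, 0.0576 and 0.107. At an unadjusted p under 0.05 stood 8 of the 57 genes (14%), 3 higher and 5 lower, against 11.6% of all probe sets, so that the share of the family is near that of the whole array.

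**Figure D1:**
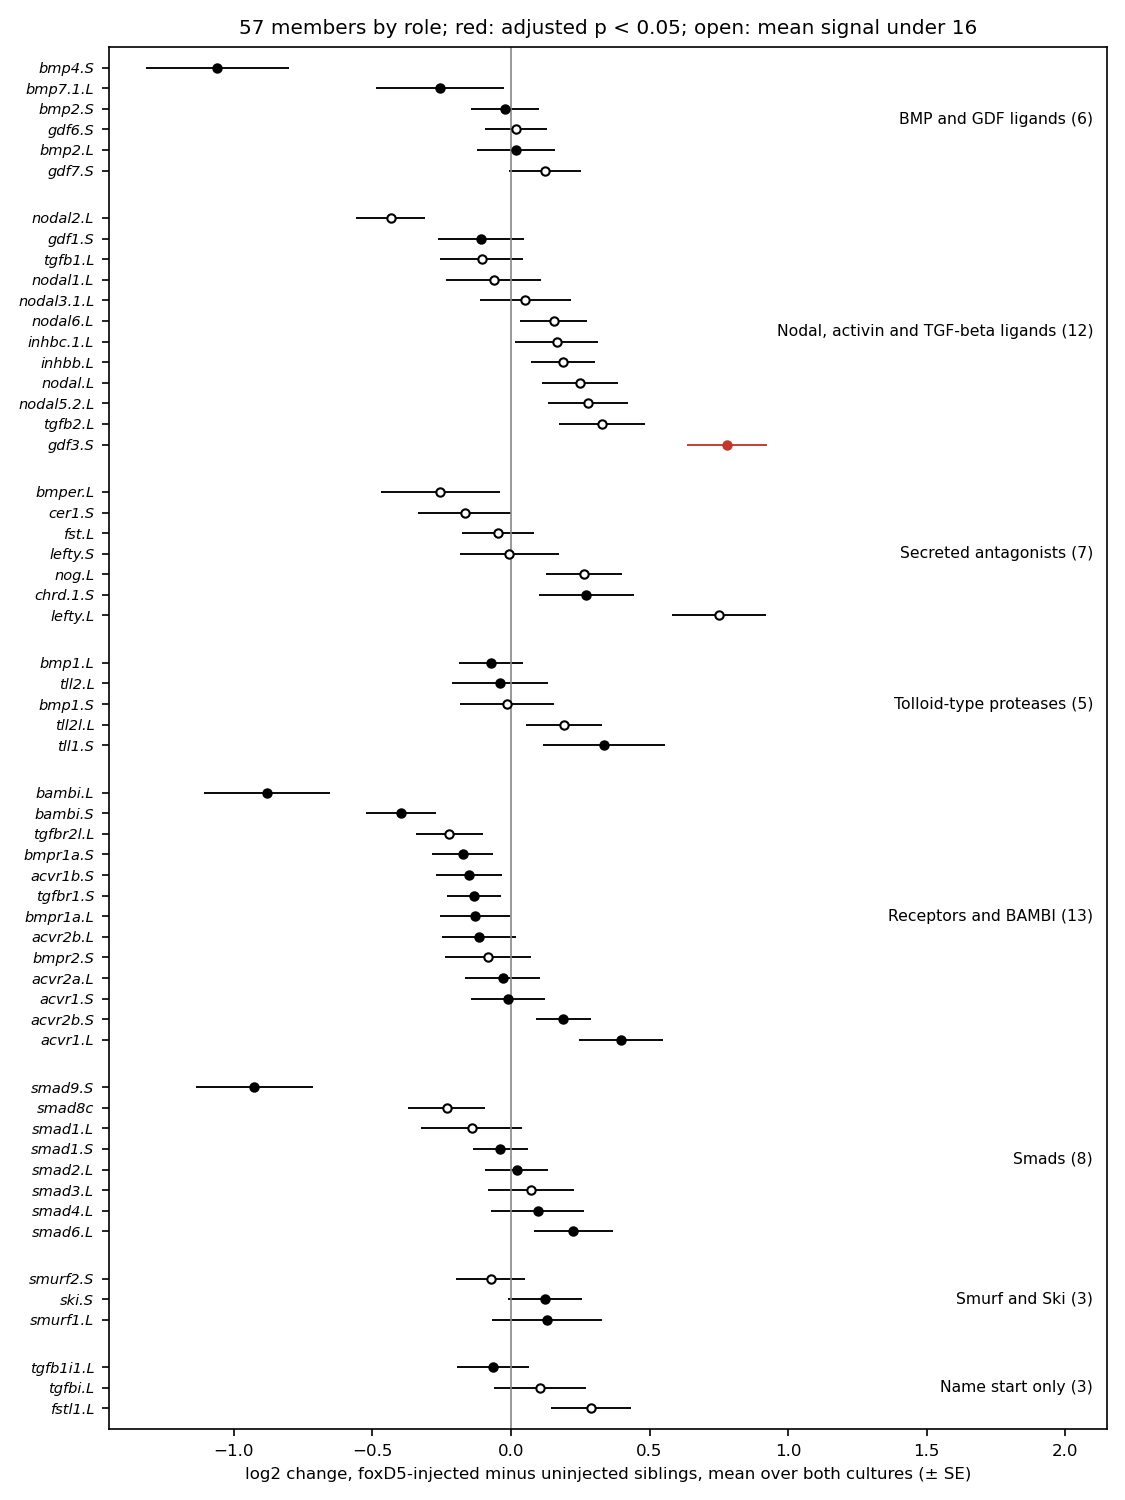
Log2 change of the 57 genes in foxD5-injected caps against uninjected siblings, averaged over both cultures (x axis), with genes grouped by role (y axis). Points are means over 8 pairs, and bars are the SE of the limma fit. The single red point, gdf3.S at 0.78, has an adjusted p under 0.05; open points have a mean signal under 16, and bmp4.S lies lowest at -1.06.

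The BMP and GDF ligands measured were bmp2.L, bmp2.S, bmp4.S, bmp7.1.L, gdf6.S and gdf7.S, and none of the 6 passed. BMP4 is the main epidermal inducer of the gastrula ectoderm. Its signal was 347, 143, 72.4 and 323 in uninjected caps 1 to 4 without Noggin and 44.2, 142, 71.4 and 79.8 in their injected siblings. In Noggin it was 202, 394, 96.6 and 69.6 in uninjected caps and 97.0, 136, 23.2 and 44.1 in injected siblings. Uninjected pools thus differed widely among themselves, the groups overlapped in both cultures, and pairs 2 and 3 without Noggin held equal levels. The log2 value was -1.05 ± 0.37 without Noggin (adjusted p = 0.324) and -1.06 ± 0.37 in Noggin (adjusted p = 0.469). The SE is shared because both cultures were fitted together. It hides that the pair differences ran from -2.60 to 0.06 without Noggin and from -1.42 to -0.59 in Noggin. Of the rest, bmp2.L and bmp2.S had values of 0.02 ± 0.14 and -0.02 ± 0.12 over both cultures. The signal of bmp2.L, a further BMP ligand of the ectoderm, was 34.1 ± 22.0 in uninjected caps without Noggin (SD, n = 4) and 45.8 ± 15.8 in injected ones. bmp7.1.L, the partner of BMP4 in heterodimers, read -0.26 ± 0.23.

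Epidermis markers also differed between siblings, and pair 1 without Noggin held the lowest difference of both these markers and bmp4.S. The mean log2 difference of 9 epidermis markers (keratins krt12.4.L, krt12.4.S, krt12.5.S, krt70.L and krt70.S, with foxi1.L, grhl3.L, tfap2a.L and tp63.L) was -2.85, -0.59, 0.01 and -1.39 in pairs 1 to 4 without Noggin and -0.52, -1.26, -0.53 and -0.22 in Noggin. It was lower in 7 of 8 pairs and averaged -0.92 ± 0.91 (SD). Of these markers only tp63.L had a mean signal under 16. The cement gland list of 5 genes showed -2.01, 0.31, 0.64 and -0.68 without Noggin and 0.25, -0.99, -0.14 and 0.16 in Noggin. The differences of bmp4.S were -2.60, 0.06, 0.04 and -1.70, then -0.90, -1.35, -1.42 and -0.59. The 3 pairs in which the epidermis markers lay lowest, pairs 1 and 4 without Noggin and pair 2 in Noggin, thus held 3 of the 4 lowest differences of bmp4.S. The part of epidermal state in the BMP4 values was not tested, and in pooled caps fewer cells of a type cannot be told apart from less RNA per cell.

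**Figure D2:**
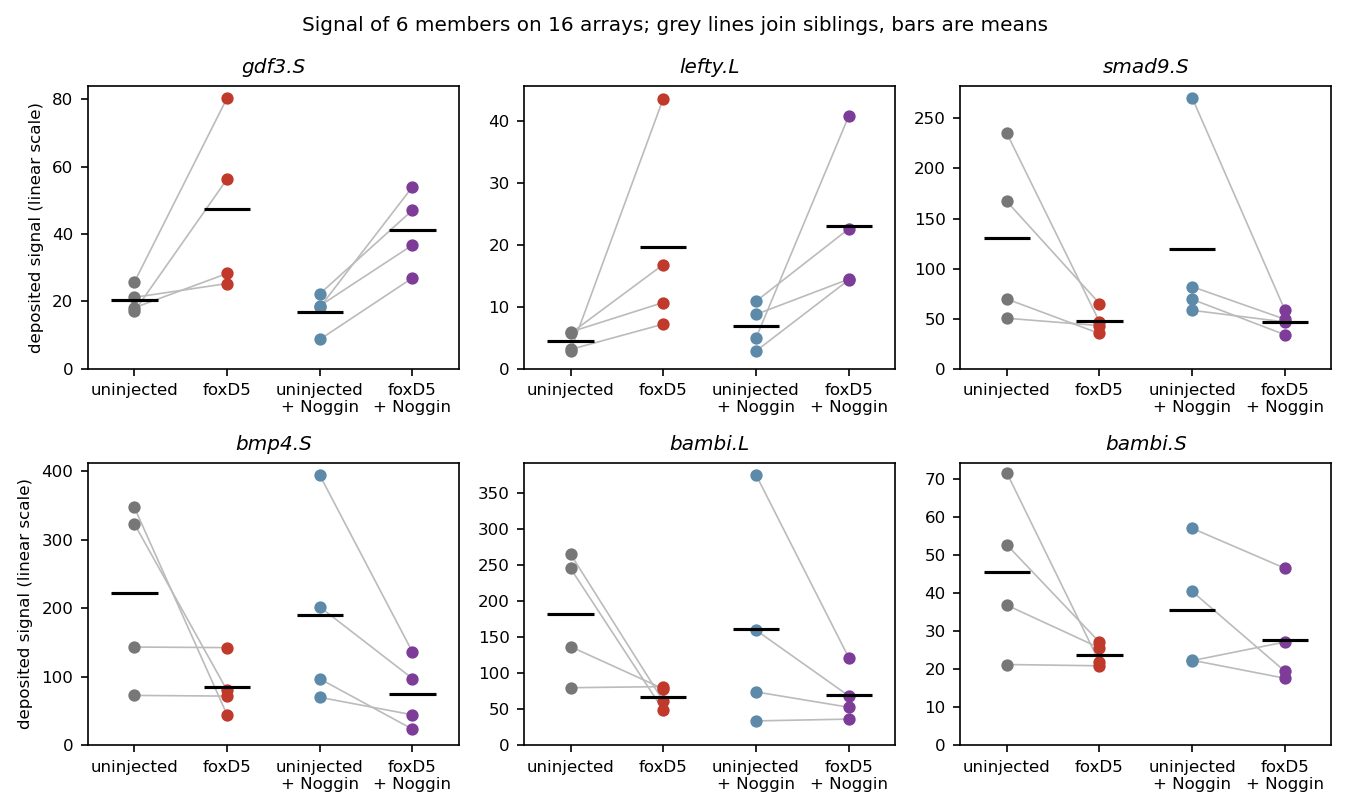
Deposited signal (linear scale, y axis) of gdf3.S, lefty.L, smad9.S, bmp4.S, bambi.L and bambi.S in the 4 groups of 4 arrays (x axis); grey lines join siblings and bars are group means. Injected caps stood above their siblings in all 8 pairs for gdf3.S and lefty.L, whereas uninjected caps spread from 69.6 to 394 for bmp4.S.

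Among the 12 Nodal, activin and TGF-beta ligands, gdf3.S rose over both cultures and 11 did not pass. Its signal was 18.0, 25.7, 21.1 and 16.98 in uninjected caps without Noggin and 28.2, 80.4, 25.2 and 56.3 in their siblings. In Noggin it was 22.2, 8.63, 18.6 and 18.2 in uninjected caps and 47.0, 26.9, 36.7 and 54.0 in injected ones. The readings 25.7 and 80.4 fell on the arrays of pair 2 without Noggin, where dim genes read high. After normalisation, injected pools 2 and 4 without Noggin read 6.36 and 6.30 on the log2 scale. All injected pools in Noggin lay above all uninjected ones, and without Noggin only injected pool 3 fell below the highest uninjected pool. The share of all probe sets whose groups separate in this way was not counted, here or for the genes below. The log2 value was 0.78 ± 0.21 in each culture, with an adjusted p of 0.212 without Noggin and 0.243 in Noggin. The pair differences ran from 0.04 in pair 3 to 1.42 in pair 2 without Noggin and from 0.49 to 1.01 in Noggin. The call ended with pair 4 without Noggin left out (0.73, adjusted p = 0.0889) and with pair 1, 2 or 4 in Noggin left out (0.78, 0.77 and 0.75, adjusted p = 0.0723, 0.0729 and 0.0837). It ended also with a pseudocount of 1 (1.201, adjusted p = 0.0965). In the 5 pairs left without the 3 of lowest epidermis markers, a choice made after the values were seen, it stood at 0.74 (adjusted p = 0.163).

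The ligand genes of this branch were dim, 10 of the 12 with a mean under 16, and gdf1.S and gdf3.S had means of 17.7 and 31.5. nodal2.L, one of the Nodal-related genes that induce mesendoderm, read 23.4, 18.1, 15.8 and 6.78 in uninjected caps without Noggin and 1.72, 4.62, 4.10 and 7.91 in siblings. Its log2 value there was -0.57 ± 0.18 (adjusted p = 0.28), and over both cultures -0.43 ± 0.13 (adjusted p = 0.158) with 6 of 8 pairs lower. gdf1.S, which codes for the maternal factor Vg1, read -0.11 ± 0.15. Over both cultures, the genes nodal.L, nodal1.L, nodal3.1.L, nodal5.2.L, nodal6.L, inhbc.1.L, tgfb1.L and tgfb2.L ranged from -0.11 for tgfb1.L to 0.33 for tgfb2.L, and none had an unadjusted p under 0.05. In Noggin alone nodal5.2.L read 0.51 ± 0.21, higher in 4 of 4 pairs (limma unadjusted p = 0.0293, adjusted p = 0.576). The highest readings of nodal1.L (40.1) and nodal6.L (49.1) fell on the uninjected and the injected array of pair 2 without Noggin, which had raised low signals.

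The activin B gene inhbb.L had the smallest unadjusted p of the family for a difference between cultures. Activin B is a TGF-beta type ligand of the early embryo. Its signal was 15.0, 26.6, 12.8 and 11.0 in uninjected caps and 8.81, 8.84, 17.9 and 3.33 in injected caps without Noggin. In Noggin it was 1.21, 2.31, 1.76 and 15.1 in uninjected caps and 12.2, 12.2, 13.7 and 25.8 in injected ones. In Noggin every injected pool lay above its own sibling, yet uninjected pool 4 was higher than 3 of the injected pools, and without Noggin 3 of 4 pairs went the other way. The log2 value was 0.66 ± 0.16 in Noggin (adjusted p = 0.178) and -0.29 ± 0.16 without it. Their difference was 0.95 ± 0.23 with an unadjusted p of 0.00128 and an adjusted p of 0.926.

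Of the 7 secreted antagonists none passed, and only chrd.1.S had a mean signal of at least 16. lefty.L codes for Lefty, a Nodal antagonist that Nodal signalling itself induces. It read 2.85, 5.92, 3.09 and 5.69 in uninjected caps without Noggin and 43.7, 10.7, 7.19 and 16.8 in siblings. In Noggin it was 8.76, 2.84, 10.9 and 4.92 in uninjected caps against 14.5, 14.3, 22.6 and 40.9. In both cultures each injected pool was higher than every uninjected pool, although all of these signals were low, at most 10.9 in uninjected pools. The log2 value was 0.75 ± 0.24 in each culture (adjusted p = 0.286 and 0.416). Its homeolog lefty.S showed no such pattern, with -0.01 ± 0.18 over both cultures and signals between 0.633 and 20.7. The size of the lefty.L value hung on the pseudocount, 1.81 with 1 and 0.29 with 64, and neither passed (adjusted p = 0.146 and 0.123).

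The classical neural inducers were low. chrd.1.S, coding for Chordin, had 16.2 ± 4.59 in uninjected and 26.1 ± 10.2 in injected caps without Noggin, and 22.7 ± 17.6 and 24.6 ± 8.56 in Noggin (SD, n = 4). The log2 value over both cultures was 0.27 ± 0.17 (adjusted p = 0.57). By culture it was 0.37 ± 0.24 without Noggin and 0.18 ± 0.24 in Noggin. A dimmer probe set of chrd.1.S, with a mean signal of 13.4, read -0.06 ± 0.27 and 0.39 ± 0.27, so the probe sets disagree in sign without Noggin. nog.L, the frog's own noggin gene, read 1.19 to 22.4 over the 16 arrays, and Noggin protein added to the medium does not appear in this measurement of RNA. fst.L for the activin antagonist Follistatin was at 66.0 and 45.6 on the 2 arrays of pair 2 without Noggin and at no more than 14.9 on the others. The same arrays gave cer1.S, for Cerberus, its highest readings, 50.0 and 14.2. bmper.L, for the BMP binding protein Crossveinless 2, completed the group and read 45.8 in uninjected pool 1 without Noggin and 0.624 to 25.2 elsewhere. These single high arrays left the fitted values between -0.25 and 0.27 for the 6 antagonists other than lefty.L.

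Of 5 Tolloid-type proteases, which release BMPs by cutting Chordin, none passed. tll1.S ranged from 0.433 to 91.1 over the arrays and gave -0.04 ± 0.31 without Noggin and 0.71 ± 0.31 in Noggin (adjusted p = 0.643). tll2.L, which codes for Xolloid, read -0.04 ± 0.17 over both cultures. bmp1.L had 26.2, 11.9, 18.6 and 18.4 in uninjected and 15.1, 5.49, 7.92 and 13.2 in injected caps without Noggin, lower in each pair, with a log2 value of -0.37 ± 0.16 (adjusted p = 0.48). In Noggin it read 0.22 ± 0.16, and the difference of 0.59 ± 0.23 had an adjusted p of 0.926. A dimmer probe set of bmp1.L, with a mean signal of 12.3, read 0.23 ± 0.16 without Noggin and 0.08 ± 0.16 in Noggin. Its difference between cultures was -0.14 ± 0.23, so the probe sets disagree in sign without Noggin and for the difference. The homeolog bmp1.S gave -0.01 ± 0.17.

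Of 13 receptor and BAMBI genes 11 had a value below 0 over both cultures, with a median of -0.13 against -0.01 over all probe sets, and none passed. The decoy receptor BAMBI, which follows BMP4 expression closely in frog embryos, was the lowest of them. bambi.L read 265, 79.5, 136 and 245 in uninjected caps without Noggin and 60.9, 81.0, 78.0 and 48.3 in siblings, and in Noggin 159, 375, 73.7 and 33.5 against 68.3, 121, 52.4 and 35.9. Its 4 highest uninjected pools of 8 were those of bmp4.S, pools 1 and 4 without Noggin and 1 and 2 in Noggin. Its value was -1.06 ± 0.32 without Noggin (adjusted p = 0.271) and -0.70 ± 0.32 in Noggin (adjusted p = 0.671). The homeolog bambi.S had -0.40 ± 0.13 over both cultures (adjusted p = 0.206), lower in 7 of 8 pairs. The 3 lowest differences of bambi.L, -1.90, -1.89 and -1.41, fell in the 3 pairs of lowest epidermis markers, and the part of epidermal state in them was not tested.

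**Figure D3:**
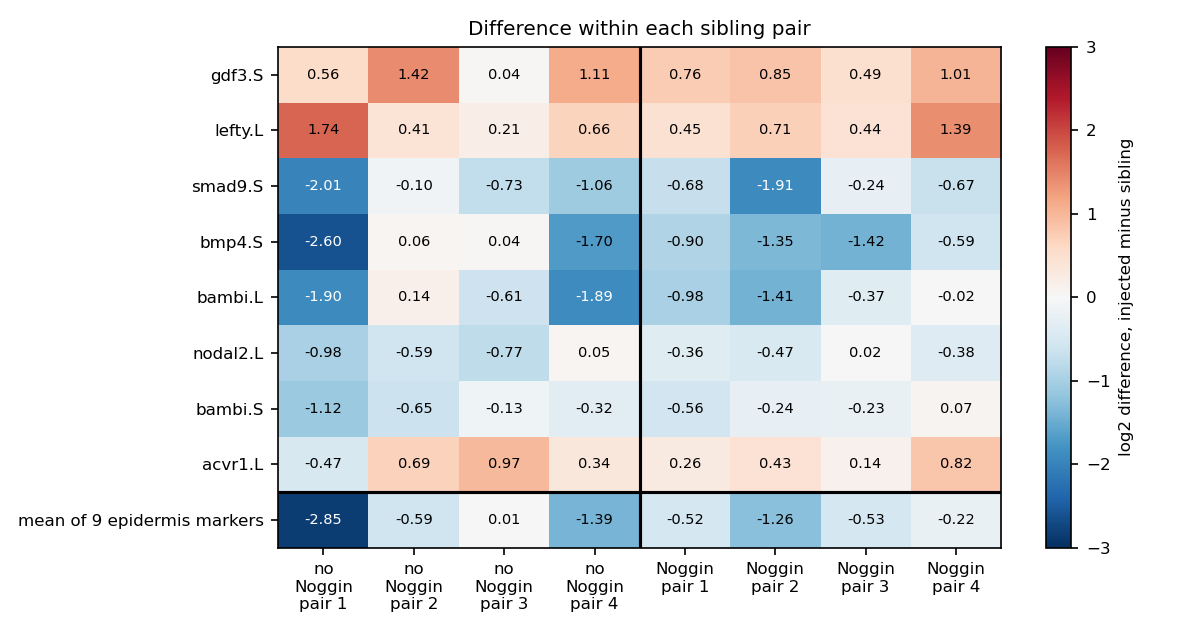
Log2 difference between injected caps and uninjected siblings (colour and number) for 8 genes and the mean of 9 epidermis markers (rows) in each sibling pair (columns). Pairs 1 and 4 without Noggin and pair 2 in Noggin hold the lowest epidermis means, -2.85, -1.39 and -1.26, while gdf3.S and lefty.L are above 0 in every pair.

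Among true receptors, acvr1.L, the type I BMP receptor ALK2, had the highest value. Its signal was 1149 ± 423 in uninjected and 1493 ± 438 in injected caps without Noggin and 1113 ± 335 and 1493 ± 485 in Noggin (SD, n = 4). Injected caps were higher in 7 of 8 pairs, all but pair 1 without Noggin, with 0.40 ± 0.15 over both cultures (adjusted p = 0.32). With that pair left out the gene passed, at 0.54 (adjusted p = 0.0456). This was the only 1 of 17 alternatives in which it passed. Its values ran from 0.30 to 0.61, with adjusted p up to 0.91. The homeolog acvr1.S gave -0.01 ± 0.13. The type II activin receptor acvr2b.S stood at 0.19 ± 0.10 and its homeolog acvr2b.L at -0.11 ± 0.13. The remaining receptors acvr1b.S, acvr2a.L, bmpr1a.L, bmpr1a.S, bmpr2.S, tgfbr1.S and tgfbr2l.L read from -0.22 to -0.03.

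The Smads were split between 1 low value and 7 values near 0. smad9.S codes for a receptor-regulated Smad of the BMP branch. Its signal was 235, 50.3, 69.5 and 167 in uninjected caps without Noggin and 46.7, 42.9, 35.0 and 65.0 in siblings, and in Noggin 69.2, 271, 58.2 and 81.8 against 33.8, 58.3, 46.6 and 49.3. The 8 injected pools kept within 33.8 to 65.0, whereas uninjected pools reached 271, and the groups overlapped slightly in both cultures. Each of 8 pairs was lower, by as little as 0.10 in pair 2 and as much as 2.01 in pair 1 without Noggin. The value was -0.98 ± 0.30 without Noggin and -0.87 ± 0.30 in Noggin (adjusted p = 0.271 and 0.463). Over both cultures it passed as deposited without normalisation (-0.96, adjusted p = 0.0476), with arrays centred on the median (-0.94, adjusted p = 0.043), among probe sets above the median signal (adjusted p = 0.0479) and with pair 2 without Noggin left out (-1.10, adjusted p = 0.0299). In all it passed in 5 of 17 alternatives, with values from -1.10 to -0.47 and adjusted p up to 0.46. Its 3 lowest differences, -2.01, -1.91 and -1.06, also fell in the 3 pairs of lowest epidermis markers. They were read in the same pools as bmp4.S and bambi.L, and the part of epidermal state was not tested here either. Over both cultures, bmp4.S passed in 3 of 17 alternatives, with values from -1.27 to -0.45 and adjusted p up to 0.475. bambi.L passed in 2 of 17, with values from -1.11 to -0.34 and adjusted p up to 0.686.

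The same direction in 8 of 8 pairs was found for gdf3.S and lefty.L (higher) and smad9.S (lower), 3 of 57 genes (5.26%) against 3.09% of all probe sets. The common mediator smad4.L was bright and variable, 257 to 774 over the arrays, and read 0.10 ± 0.17. smad1.S, which carries the BMP signal, read -0.04 ± 0.10, and smad2.L, its counterpart for Nodal, 0.02 ± 0.11. The inhibitory smad6.L, a known BMP target, read 0.23 ± 0.14, higher in 5 of 8 pairs (limma adjusted p = 0.57). Its sign was opposite to that of bmp4.S and bambi.L, and none of these genes passed. smad1.L, smad3.L and smad8c were dim, with values between -0.23 and 0.07. Among regulators, ski.S, a corepressor that binds Smads, read 0.12 ± 0.13, and the ubiquitin ligase genes smurf1.L and smurf2.S read 0.13 ± 0.20 and -0.07 ± 0.12.

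Genes of these pathways outside the name rule were counted from lists drawn up with earlier results of these data known. The share of all probe sets that passed over both cultures was 1.37%, as above. Of 29 further pathway parts measured, 3 fell over both cultures: the homeologs of the feedback inhibitor Sizzled, szl.L and szl.S, and the Smad corepressor gene tgif2.S (-0.76 ± 0.16, adjusted p = 0.0365). Its homeolog tgif2.L, with the higher mean signal (331 against 236), had the opposite sign, 0.26 ± 0.16 (limma adjusted p = 0.569). Of 22 BMP target genes 4 fell, namely tfap2a.L, msx1.L, gata2.L and tbx3.S (-0.94 ± 0.20, adjusted p = 0.0438), and 18 did not pass, with a median over the 22 of -0.36 against -0.01 over all probe sets. The homeologs msx1.S (-0.40) and tbx3.L (-0.31) were also below 0 but did not pass (limma adjusted p = 0.536 and 0.52). Above 0 stood ventx2.2.L (0.42), evx1.L (0.28), ventx3.2.S (0.22) and id2.L (0.05), which did not pass either. The rest of the 22 were below 0, some of them barely, such as ventx2.1.S (-0.05), id4.S (-0.07) and ventx1.1.L (-0.09). The list thus did not fall as a whole. Of 17 Nodal and activin target genes 2 rose, the midline forkhead gene foxa4.L (0.76 ± 0.11, adjusted p = 0.00453, mean signal 9.07) and the Brachyury gene tbxt.S (0.65 ± 0.13, adjusted p = 0.0336, mean signal 16.8), and 15 did not pass, with a median of 0.00. The homeolog foxa4.S read 0.22 (limma adjusted p = 0.657). Brachyury is also a mesoderm marker, and the mean difference of the 8 mesoderm markers was 0.15 ± 0.19 (SD, 8 pairs), of which 5 had a mean signal under 16. That of 15 endoderm markers was -0.16 ± 0.15, lower in 6 of 8 pairs, and that of 11 neural plate markers 0.01 ± 0.24, and their part in these counts was not tested. tfap2a.L is among the epidermis markers too. The 3 pairs of lowest epidermis markers were picked after the values were seen, and partly on tfap2a.L itself. The part of epidermal state in the BMP target values was not tested by leaving them out. Without these 3 pairs 0.504% of all probe sets passed. In that fit of 5 pairs 1 BMP target gene passed, tfap2a.L (-0.93, adjusted p = 0.0418), the median of the 22 was -0.10, and neither foxa4.L (0.69) nor tbxt.S (0.63) passed (adjusted p = 0.0632 and 0.121). Among pathway parts 2 passed there, tgif2.S (-1.07, adjusted p = 0.0245) and the gene of the Nodal and BMP antagonist Coco, dand5.S (-0.87, adjusted p = 0.0486, named after its value was seen), while szl.L stood at -0.94 (adjusted p = 0.0652) and szl.S at -0.78 (adjusted p = 0.163).

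Taken culture by culture, none of the 57 genes passed. Without Noggin, where 37 probe sets (0.239%) passed, 11 of the 57 (19.3%) had an unadjusted p under 0.05, 2 higher and 9 lower, against 10.2% of all probe sets. The 9 lower ones were 5 receptor or BAMBI genes and 1 each of the BMP ligands, Nodal-type ligands, proteases and Smads. In Noggin, where 49 probe sets (0.316%) passed, 7 of the 57 (12.3%) stood under 0.05, 5 higher and 2 lower, against 7.37%. The median SE of a gene's change was 0.20 in 1 culture and 0.14 over both.

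Whether the effect of foxD5 differed between the cultures was tested as a difference of the 4-pair effects. No gene of the family passed, and neither did any probe set of the array (0%). An unadjusted p under 0.05 was reached by 6 of the 57 (10.5%) against 4.94%. Besides inhbb.L, the smallest p values were those of bmp2.L (-0.79 ± 0.28), bmp1.L, smurf2.S (0.58 ± 0.25) and gdf6.S (-0.50 ± 0.22), each with an adjusted p of 0.926. bmp2.L read 0.41 ± 0.20 without Noggin and -0.38 ± 0.20 in it. gdf6.S, a BMP-type ligand gene, was under 18 on all arrays but those of pair 2 without Noggin, where it read 33.3 and 48.3. For the 3 lowest and the 2 highest values over both cultures the difference between cultures was -0.01 ± 0.52 for bmp4.S, 0.10 ± 0.42 for smad9.S, 0.37 ± 0.45 for bambi.L, 0.00 ± 0.29 for gdf3.S and 0.00 ± 0.34 for lefty.L. With SEs of 0.29 to 0.52 these values do not show that the effects were equal.

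**Figure D4:**
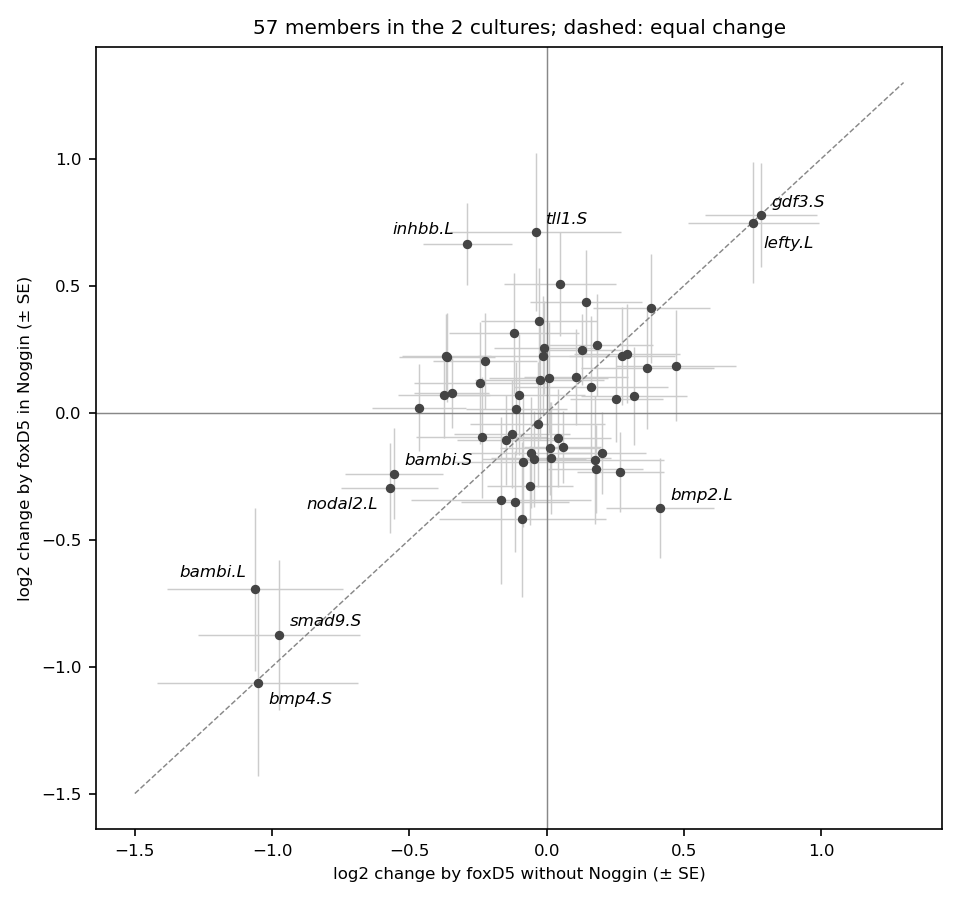
Log2 change in foxD5-injected caps against uninjected siblings without Noggin (x axis) and in Noggin (y axis) for the 57 genes. Each change is a mean over 4 pairs. Its SE (±) comes from the joint fit of both cultures, which gives a gene the same SE in each. The dashed line marks equal change. gdf3.S and lefty.L lie at the upper right and bmp4.S, smad9.S and bambi.L at the lower left, near the line, while inhbb.L (-0.29 and 0.66) and bmp2.L (0.41 and -0.38) lie away from it.

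Caps grown in Noggin were set against caps grown without it, in uninjected and in injected pools. The labels link no sibling set of 1 culture to the other, so culture and sibling set cannot be told apart here. Injected caps without Noggin were staged up to 13.0 and caps in Noggin up to 12.5. No stage was given for uninjected caps without Noggin, and the part of stage in these comparisons was not tested. No gene of the family passed: in uninjected caps 1 probe set (0.00646%) passed, and 2 of the 57 (3.51%) against 8.23% had an unadjusted p under 0.05. In injected caps 20 probe sets (0.129%) passed, and 6 of the 57 (10.5%), all higher, against 11.8% stood under 0.05.

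Among brightest probe sets of the family, that of the BMP receptor gene bmpr1a.L, coding for ALK3, had the smallest p value in both comparisons. Its signal was 129, 118, 188 and 143 in uninjected and 92.6, 136, 132 and 135 in injected caps without Noggin. In Noggin it was 226, 219, 239 and 312 in uninjected and 195, 233, 287 and 206 in injected caps. Every pool in Noggin was above every pool without it, and for how many probe sets of the array this held was not counted. The log2 value was 0.78 ± 0.21 in uninjected caps (adjusted p = 0.267) and 0.82 ± 0.21 in injected caps (adjusted p = 0.105), and with a pseudocount of 64 the latter passed (0.64, adjusted p = 0.0457). The other probe sets of the gene read 0.64 and 0.54 in uninjected and 0.81 and 0.76 in injected caps (adjusted p of the last pair 0.0813 and 0.0824), so that all 3 pointed the same way. They measure 1 gene in the same pools, so this is no independent support. The homeolog bmpr1a.S read -0.09 ± 0.18 and -0.32 ± 0.18, the opposite sign, and its 4 injected pools in Noggin were all below those without.

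The brightest probe set of smad1.S read 251 ± 6.503 without and 331 ± 49.3 with Noggin in uninjected caps (SD, n = 4), which did not overlap, with 0.35 ± 0.17 (adjusted p = 0.616). In injected caps its groups overlapped, with 0.16 ± 0.17 (limma adjusted p = 0.788). A second probe set gave 1.35 in uninjected and 1.28 in injected caps (adjusted p = 0.195 and 0.103), with signals of 17.9 to 54.6 in the 8 pools without Noggin and 48.1 to 146 in Noggin. The probe sets of this gene therefore disagree in size. tgfbr1.S, which codes for ALK5, read 37.9, 43.3, 39.1 and 24.9 in injected caps without Noggin and 49.0, 47.8, 62.2 and 73.2 in Noggin, all of them higher, with 0.59 ± 0.16 (adjusted p = 0.134). In uninjected caps it read 0.17 ± 0.16.

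**Figure D5:**
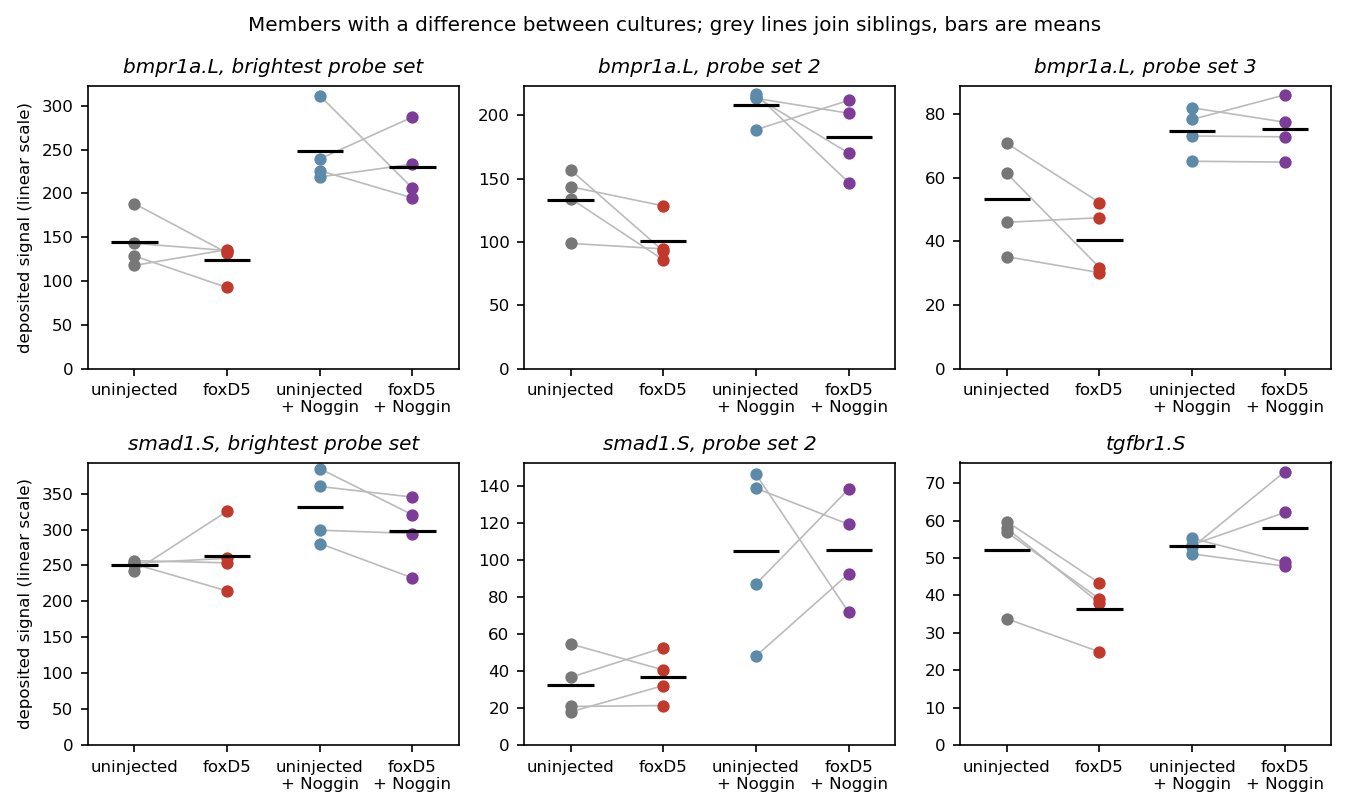
Deposited signal (linear scale, y axis) in the 4 groups of 4 arrays (x axis) for the 3 probe sets of bmpr1a.L, both probe sets of smad1.S and tgfbr1.S; grey lines join siblings and bars are means. All 8 arrays in Noggin exceed all 8 without it for the brightest probe set of bmpr1a.L (195 to 312 against 92.6 to 188).

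The next smallest p values between cultures belonged to acvr1.S (0.67 ± 0.24, adjusted p = 0.265), bmp1.L (0.64 ± 0.23) and nodal3.1.L (0.64 ± 0.28) in injected caps. The dimmer probe set of bmp1.L read 0.10 ± 0.23 there. In uninjected caps the next smallest p values belonged to inhbb.L (-0.55 ± 0.20, adjusted p = 0.445), bmp2.L (0.57 ± 0.31) and tgfbi.L (-0.46 ± 0.26), the last a matrix protein gene and no pathway part. By Noggin in uninjected caps bmp4.S read -0.24 ± 0.52, bambi.L -0.37 ± 0.49 and smad9.S 0.01 ± 0.44, with wide SEs beside the spread of 69.6 to 394 for bmp4.S among uninjected pools in Noggin. Of the BMP target list, 0 of 22 genes passed in either comparison by Noggin.

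Homeologs could be compared for 8 genes, of which 4 had the same sign over both cultures and 4 had not. The bambi homeologs were both lower, whereas lefty.L at 0.75 and lefty.S at -0.01 differed, as did acvr1.L and acvr1.S. Probe sets of such near-identical copies can capture transcripts of either, so a homeolog's own share is uncertain.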

How the data were processed

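The data are intensity values that the authors deposited, 1 positive value per probe set on a linear scale from single-colour Affymetrix Xenopus arrays of total RNA. Trimmed of 2% at either end, array means were 149.92 to 149.94 on the 16 arrays, so the deposited values share a scale. The software that made them is not given in the sources used here. The labels' source tissue contradicts the sample descriptions, which were followed. The injected sample without a number in each culture was taken as 1, the number left over.

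Values were transformed as log2(value + 16) and quantile normalised, since array medians of the deposited values ranged from 5.79 to 6.35 on that log2 scale. All 15491 probe sets other than 120 Affymetrix controls were fitted with R 4.3.3 and limma 3.58.1 (two-sided, Benjamini-Hochberg over all probe sets, threshold 0.05), with no filter on low signal. The effects of foxD5 and their difference were fitted with a fixed term for each sibling pair (residual df 6), the comparisons by Noggin with a random one (correlation 0.364, residual df 12). Both cultures were fitted together, so a gene's SE for foxD5 is the same in each culture. The SEs of log2 values come from the eBayes step of limma, which draws each gene's spread towards that of all probe sets. They are therefore not the SE of a gene's own pair differences. The labels give the pairing, apart from pair 1 of each culture, which was inferred from the number left over. In a check of the pairing, the correlation of siblings' deviations from their group means was -0.115 for pair 1 without Noggin and 0.203 to 0.670 for the other 7 pairs. Pair 1 without Noggin also held the lowest differences of bmp4.S, bambi.L, smad9.S and the epidermis markers. Each array was also compared with the 4 arrays of the other group in its culture, and for 13 of 16 the own sibling correlated best.

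The members and the gene lists were chosen with earlier results of these data known. Genes were named where they passed, had the 8 smallest p values over both cultures or the 5 smallest in another comparison, were among the 2 brightest of a role, or were the homeolog of such a gene; others named, such as nog.L, fst.L and cer1.S, were added for their role after their values were seen. By Entrez identifier 56 members were found among RefSeq genes under the same symbol, and smad8c was not; 8 probe sets with several symbols were left out. The number of arrays limits the precision. Alternatives were no block, values as deposited, median centring, pseudocounts of 1 and 64, brighter probe sets only, an intensity trend, the mean over a member's probe sets, single comparisons alone, a block for the replicate number over both cultures, and each pair left out. Leaving out 3 pairs was added after the data were seen.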

Additional observations from a re-analysis of the deposited data

Results flagged for a closer look

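In 5 of 132 groups of 4 arrays tested, for 33 genes on the normalised log2 scale, 1 array lay far from the others of its group by Dixon's criterion; chance alone flags about 1 in 20 groups. Their deposited signals follow. The value of bambi.S was 46.6 in foxD5-injected pool 2 in Noggin, against 17.6 to 27.1 in the others. That of bmp1.L was 11.9 in uninjected pool 2 without Noggin, against 18.4 to 26.2. bmpr1a.L read 312 in uninjected pool 4 in Noggin, against 219 to 239, and smurf1.L read 5.99 in uninjected pool 1 without Noggin, against 19.0 to 38.7. The signal of tll2.L was 33.4 in foxD5-injected pool 3 without Noggin, against 12.2 to 27.5.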

How the results depend on the processing

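The count of family genes that passed for foxD5 over both cultures, 1 in the fit as reported, was 2 with values as deposited and 2 with median centring (gdf3.S and smad9.S), 0 with a pseudocount of 1, 5 with an intensity trend (gdf3.S, lefty.L, smad9.S, bmp4.S and bambi.L) and 0 without the 3 pairs of lowest epidermis markers. With 1 pair left out it ranged from 0 to 4: 0 without pair 4 of the untreated culture or pair 1, 2 or 4 in Noggin, 3 without untreated pair 1, 4 without untreated pair 2 and 2 without untreated pair 3. Among probe sets above the median signal it was 1, but the gene was smad9.S, since gdf3.S was not tested there. For Noggin in injected caps the count was 0 as reported and 1 (bmpr1a.L) with a pseudocount of 64. In the other 4 comparisons it was 0 throughout. Of 561 alternative values of 33 named log2 changes, 541 kept direction and side of the threshold, 6 no longer passed, 14 newly passed and 0 reversed. These changes were named for the smallest p values in the same data, and the alternatives share arrays, so the lack of reversals is no independent support. Only gdf3.S over both cultures passed in the fit as reported, and it passed in 10 of 16 alternatives. The causes of the moved counts and values were not tested.

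With no replicate block the family count for foxD5 over both cultures was 1 (gdf3.S, adjusted p = 0.0431) and 0 elsewhere, while over all probe sets it was 67 in place of 213, 1 in place of 37 without Noggin and 3 in place of 49 in Noggin. A block for the replicate number over both cultures called 63 in place of 20 probe sets for Noggin in injected caps and no family gene. Over all probe sets a pseudocount of 1 called 57, 0 and 1 for foxD5 over both cultures, without and in Noggin, an intensity trend 92 without Noggin and 78 in Noggin, and a pseudocount of 64 called 193 for Noggin in injected caps. Only the 8 arrays of the comparison without Noggin called 0. Low signal limits 28 of the 57 genes, whose changes are compressed by the pseudocount.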
